A study of Mus musculus with 13 samples.

Results

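10 genes of spindle and nuclear positioning were followed through mouse oocyte maturation, 10 of the 18939 genes in the count tables and of the 49686 in the FPKM table. They were *Tacc1*, *Tacc2* and *Tacc3*, their microtubule partner *Ckap5*, the nuclear envelope genes *Syne1*, *Syne2*, *Sun1* and *Sun2*, the dynein partner *Nudc* and the nonmuscle myosin *Myh10*, and all 10 were found by symbol in each table. *Tacc1*, *Tacc3*, *Syne2*, *Nudc* and *Myh10* were chosen by their higher level at MII in NSN than in SN oocytes, because they stand on the study's own list drawn from these same libraries, and the other 5 are their family members or complex partners. The difference between NSN-MII and SN-MII oocytes is therefore given below as values without a test.

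The study compared fully grown oocytes whose chromatin does not surround the nucleolus (NSN) with those whose chromatin does (SN), at the germinal vesicle (GV) stage and after maturation to metaphase II (MII). The GV libraries numbered 3 for each type, and the MII libraries numbered 3 for NSN (NSN-MII) and 4 for SN (SN-MII), each from a single oocyte of C57BL/6 mice aged 3 to 4 weeks and primed with PMSG for 48 h. Every oocyte, in all 4 groups, was injected with mRNA for the nucleolar reporter FBL-GFP, held for 6 h in 10 µM Cilostamide, an inhibitor of phosphodiesterase 3 that keeps oocytes at the GV stage, and sorted by the pattern of the marked nucleolus. MII oocytes were then released and matured in vitro, so they represent neither ovulated nor uninjected cells, and the labels do not say which oocytes came from the same female.

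TACC proteins are coiled-coil adaptors that bring ch-TOG, the microtubule polymerase encoded by *Ckap5*, to spindle microtubules, and in oocytes, which lack centrioles, TACC3 takes part in building the acentriolar spindle. The LINC complex spans the nuclear envelope: SUN proteins sit in the inner membrane and bind nesprins, encoded by the *Syne* genes, in the outer membrane, which in turn hold actin filaments or the dynein motor. NUDC works with dynein and its regulator LIS1 and is also a co-chaperone of HSP90, and MYH10 is the heavy chain of nonmuscle myosin IIB, a motor of the cortical actin network.

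The libraries held 7140416 to 8846287 counts and 11593 to 13342 genes with a count, the fewest in NSN-MII replicate 3. All 12 oocyte markers examined reached 10 FPKM (fragments per kilobase, scaled to library size), and their summed level lay between 9776 and 15417 FPKM. Of 12 cumulus and granulosa markers, *Foxl2* and *Ptx3* were at 0 in every library and only *Cyp19a1* reached 10 FPKM, and the list summed to 18.7 to 31.9 FPKM at GV and 35.9 to 59.1 FPKM at MII. Of 6 theca, stroma and blood markers in the table only *Pecam1* reached 10 FPKM, and the 6 summed to 16.2 to 26.7 FPKM at GV and 33.1 to 47.9 FPKM at MII. *Cyp19a1* (16.8 to 53.05 FPKM over all libraries) and *Pecam1* (15.98 to 46.32 FPKM) each made up most of their list's sum. Both sums moved with stage, and their part in the stage differences below was not tested.

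*Tacc3* and *Nudc* stood far above the other 8 genes at GV and lost that place by MII. On the FPKM scale, which corrects for gene length, the mean over the 6 GV libraries was 1092 for *Tacc3* and 671 for *Nudc*, and no library of one overlapped the other. *Syne2* (43.4), *Tacc2* (39.2), *Sun1* (37.8), *Ckap5* (29.8) and *Tacc1* (16.3) followed, each overlapping its neighbour in that order. *Myh10* (3.01 FPKM) lay apart from those above and below it, and *Sun2* (0.883) and *Syne1* (0.642) overlapped each other at the bottom. Over the 7 MII libraries the order of mean FPKM was *Sun1* (101), *Syne2* (84.3), *Tacc3* (84.2), *Ckap5* (64.6), *Tacc2* (49.98), *Nudc* (25.9), *Tacc1* (12.8), *Myh10* (2.96), *Sun2* (1.21) and *Syne1* (0.634), and only *Tacc1* and *Myh10* were neighbours without overlap.

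**Figure D1:**
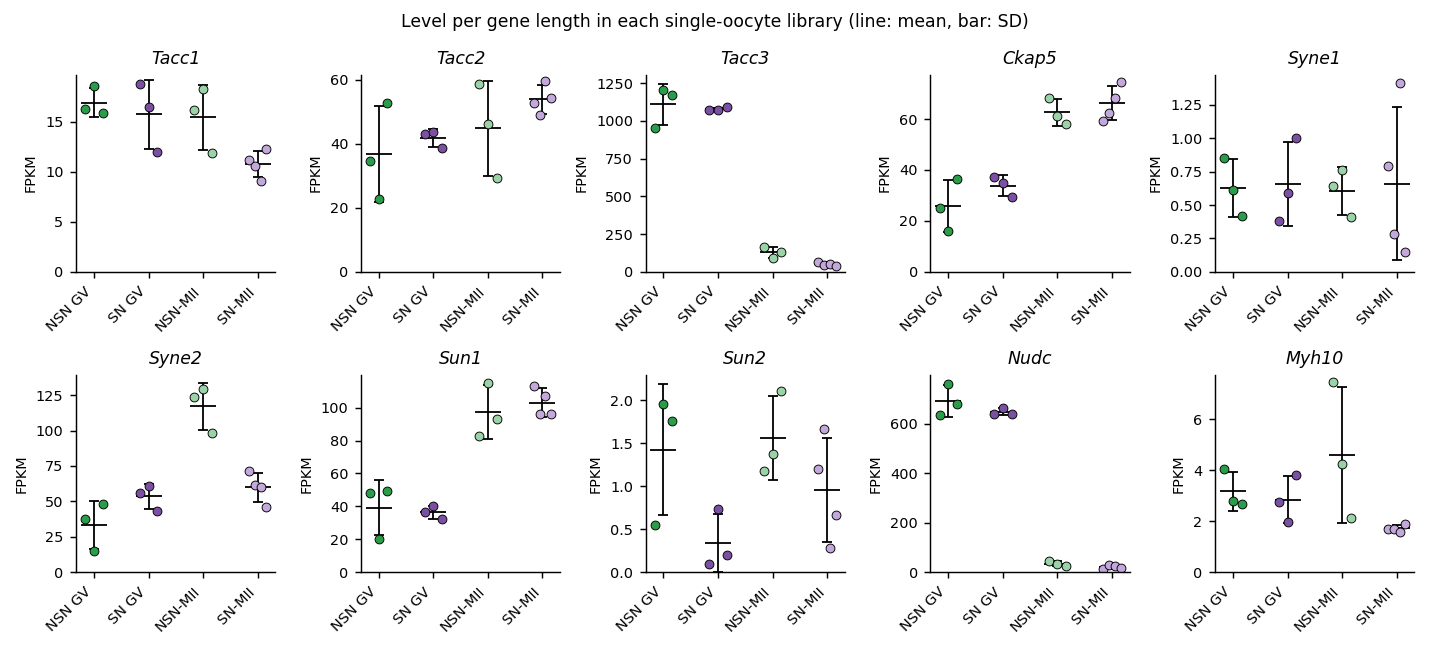
FPKM of each of the 10 genes (vertical axes, each panel on its own scale from 0) in the 13 libraries (points), with the mean (line) and SD (bar) of each group. *Tacc3* and *Nudc* are high in all GV libraries and low in all MII libraries, *Ckap5* and *Sun1* show the reverse, and *Syne2* is highest in the NSN-MII libraries.

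The question put to the stage comparison was how the mRNA level of each gene differed between GV and MII oocytes. The GV and MII libraries came from different oocytes, and the MII oocytes were those that completed maturation. The paper reports lower rates of germinal vesicle breakdown and polar body extrusion in NSN than in SN oocytes. The part of this selection in the stage values was not tested. By edgeR's quasi-likelihood test over all 13 libraries, 4 of the 10 genes were called higher at MII (*Ckap5*, *Syne2*, *Sun1* and *Tacc2*), 2 were called lower (*Tacc3* and *Nudc*) and 4 were not called (*Tacc1*, *Syne1*, *Sun2* and *Myh10*). Of all 11375 genes tested, 31.7% were called higher and 36.9% lower, so a call in either direction was common. Values are relative to the rest of each library, and a change in the total amount of mRNA per oocyte cannot be seen in them. The cDNA protocol primes on poly(A) tails, and the part of tail length in the stage values was not tested. Both the NSN-MII and the SN-MII libraries were used in choosing 5 of the genes and also enter this comparison, so the changes within NSN and within SN oocytes are given as values without a test.

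The 3′ ends of 4 transcripts are shown because these genes moved in opposite directions with no overlap between stages, and because the cDNA protocol primes on poly(A) tails. Each line gives 30 bases of the GENCODE M21 transcript (GRCm38, the build also named mm10), with poly(A) signals (AATAAA or ATTAAA) and, in *Ckap5*, a cytoplasmic polyadenylation element (TTTTAT or TTTTAAT, the binding motif of CPEB proteins) in capitals. The first pair fell and the second pair rose.
Tacc3, chr5:33678938-33678967, plus strand: gcagagctgggtagccctgtAATAAAgaca
Nudc, chr4:133532556-133532585, minus strand: tgccattcgtcctgttacacATTAAAacta
Ckap5, chr2:91620624-91620653, plus strand: taatttaagagacTTTTATaAATAAAgttt
Sun1, chr5:139249797-139249826, plus strand: atgtgcgatttcaagtgattAATAAAagtg

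The motifs were searched on the transcript strand in the last 100 bases of 1 transcript per gene, and TTTTAT and AATAAA can lie side by side without overlap, as in *Ckap5*. A poly(A) signal was found in 8 of the 10 genes, all but *Tacc2* and *Syne2*, against 80.7% of the 11233 tested genes with a transcript. The polyadenylation element was found in 1 of the 10, *Ckap5*, against 19.5% of those genes, 29.4% of the 3581 that were called higher at MII and 10.6% of the 4138 called lower. A match is only a description of these letters in this window. The median transcript length was 3833 bases for the genes called higher, 2250 for those called lower and 7226 for the 10. The part of transcript length in the stage changes was not tested.

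*Tacc3* (chr5:33658128-33678995), the TACC family member that carries ch-TOG onto spindle microtubules, fell most in level of the 4 TACC and ch-TOG genes. Its level was 949.7, 1204 and 1169 FPKM in the NSN GV libraries and 1070, 1070 and 1089 FPKM in the SN GV libraries. It was 161, 91.7 and 131 FPKM in the NSN-MII libraries and 64.0, 48.2, 54.1 and 39.0 FPKM in the SN-MII libraries. All 6 GV libraries lay above all 7 MII libraries. On the log2 scale the fold change, MII over GV, was −3.58 (SE 0.18, adjusted p = 7.08e-11), an 11.9-fold fall. Within NSN libraries the log2 fold change was −2.96 (SE 0.33) and within SN libraries −4.20 (SE 0.17). *Tacc3* shares 289 exon bases with *Tmem129* on the opposite strand, and since no strand-specific step is stated, reads from these bases could belong to either gene.

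*Ckap5* (chr2:91526762-91620664) moved the other way. It stood at 25.1, 15.96 and 36.5 FPKM in NSN GV and 37.1, 35.1 and 29.4 FPKM in SN GV libraries, against 68.4, 61.3 and 58.1 FPKM in NSN-MII and 59.4, 62.6, 68.2 and 74.5 FPKM in SN-MII libraries. The lowest MII library thus lay above the highest GV library. Its log2 fold change was 1.46 (SE 0.25, adjusted p = 5.4e-05), and it was 1.49 (SE 0.43) within NSN and 1.43 (SE 0.18) within SN libraries. The mean mRNA level of *Tacc3* against *Ckap5* was 1092 against 29.8 FPKM at GV and 84.2 against 64.6 FPKM at MII. The proteins of this pair were not measured.

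*Tacc2* (chr7:130577438-130764785), a family member with the same conserved TACC domain, was close to the threshold. Its level was 34.7, 22.8 and 52.6 FPKM in NSN GV, 42.9, 43.8 and 38.6 FPKM in SN GV, 58.7, 46.2 and 29.4 FPKM in NSN-MII and 52.8, 48.9, 59.7 and 54.3 FPKM in SN-MII libraries. The stages overlapped, the log2 fold change was 0.53 (SE 0.20, adjusted p = 0.0258), and the call was lost without NSN GV replicate 1 (adjusted p = 0.0612), NSN GV replicate 2 (adjusted p = 0.0605), SN GV replicate 3 (adjusted p = 0.0642) or NSN-MII replicate 1 (adjusted p = 0.114). Scaling by library size, which shifts the median of all genes by −0.29, also ended it (adjusted p = 0.284), as did limma on log2(FPKM + 1) (0.33, adjusted p = 0.14).

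*Tacc1* (chr8:25154552-25256588), the remaining family member, had the smallest stage value of the 4 genes over all libraries. It was measured at 16.3, 18.6 and 15.9 FPKM in NSN GV, 18.8, 16.5 and 12.0 FPKM in SN GV, 16.2, 18.3 and 11.9 FPKM in NSN-MII and 11.2, 10.5, 9.12 and 12.3 FPKM in SN-MII libraries. Each group overlapped the next in order of mean level. Its log2 fold change was −0.18 (SE 0.15, adjusted p = 0.294). The value was 0.26 (SE 0.27) within NSN and −0.62 (SE 0.20) within SN libraries, and the gene was called lower at MII with scaling by library size (adjusted p = 0.00922).

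Among the LINC genes of the 10, 1 nesprin and 1 SUN gene were called between the stages. *Sun1* (chr5:139200637-139249840), the inner-membrane side of the bridge, stood at 48.2, 20.3 and 49.3 FPKM in NSN GV and 36.7, 40.2 and 32.2 FPKM in SN GV libraries. It rose to 83.1, 115 and 93.4 FPKM in NSN-MII and 113, 95.9, 107 and 96.1 FPKM in SN-MII libraries, all above every GV library. Its log2 fold change was 1.54 (SE 0.18, adjusted p = 1.2e-06), with 1.47 (SE 0.34) within NSN and 1.60 (SE 0.15) within SN libraries. *Sun1* shares 302 exon bases with the antisense gene *4930520M14Rik*, whose reads cannot be told apart.

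*Syne2* (chr12:75818134-76110926), which encodes the giant nesprin-2 of the outer nuclear membrane, stood at 37.2, 14.7 and 48.3 FPKM in NSN GV and 56.2, 60.9 and 43.4 FPKM in SN GV libraries. It was 124, 129 and 98.4 FPKM in NSN-MII and 71.4, 61.2, 60.4 and 46.3 FPKM in SN-MII libraries. On the FPKM scale the highest GV library overlapped the lowest MII libraries, and in CPM (counts scaled to library size and not to gene length) the stages did not overlap. The log2 fold change was 1.55 (SE 0.22, adjusted p = 1.17e-05). It was 2.32 (SE 0.40) within NSN and 0.79 (SE 0.19) within SN libraries, a split that the choice of the gene by its MII difference favours.

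*Sun2* (chr15:79724070-79742536) and *Syne1* (chr10:5020917-5551482), the paralogues of these genes, were barely detected. *Sun2* had 3 to 56 counts per library and 0.1 to 2.11 FPKM, and *Syne1* had 0.150 to 1.41 FPKM. Neither passed the stage test. The log2 fold change was 0.91 (SE 0.53, adjusted p = 0.139) for *Sun2*, which was called without SN GV replicate 2 (1.55, adjusted p = 0.0221), and 0.15 (SE 0.39, adjusted p = 0.748) for *Syne1*. The transcript length implied by the ratio of count to FPKM varied 4.46-fold between libraries for *Syne1*, from 5.79 to 25.8 kb, and its FPKM moves with that length. For *Sun2* the implied length varied 3.08-fold, from 1.405 to 4.33 kb. *Sun2* also shares 147 exon bases with the antisense gene *Gm16575*, whose reads cannot be told apart. At MII the mean level of *Sun1* was 101 FPKM against 1.21 FPKM for *Sun2*.

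*Nudc* (chr4:133532542-133545996) fell furthest of the 10. It stood at 634, 761 and 680 FPKM in NSN GV and 642, 665 and 641 FPKM in SN GV libraries, and at 44.4, 34.1 and 23.2 FPKM in NSN-MII and 13, 27.8, 23.9 and 14.7 FPKM in SN-MII libraries. The stages were widely separated and the types overlapped within each. Its log2 fold change was −4.56 (SE 0.20, adjusted p = 2.76e-11), a 23.7-fold fall, with −4.25 (SE 0.32) within NSN and −4.88 (SE 0.23) within SN libraries.

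*Myh10* (chr11:68691559-68816632) was a low gene at both stages. Its level was 4.06, 2.81 and 2.67 FPKM in NSN GV, 2.74, 1.97 and 3.83 FPKM in SN GV, 7.46, 4.24 and 2.14 FPKM in NSN-MII and 1.71, 1.68, 1.57 and 1.91 FPKM in SN-MII libraries. On the FPKM scale the 4 SN-MII libraries were the lowest of the 13 and the 3 NSN-MII libraries the most spread, while in CPM SN-MII replicate 4 (17.4) lay above 3 of the GV libraries. The log2 fold change between stages was 0.35 (SE 0.30, adjusted p = 0.322). It was 1.21 (SE 0.51) within NSN and −0.52 (SE 0.31) within SN libraries. Whether the stage change of any of the 10 genes differed between NSN and SN oocytes was not tested, since the choice of the genes used the MII side of that difference.

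**Figure D2:**
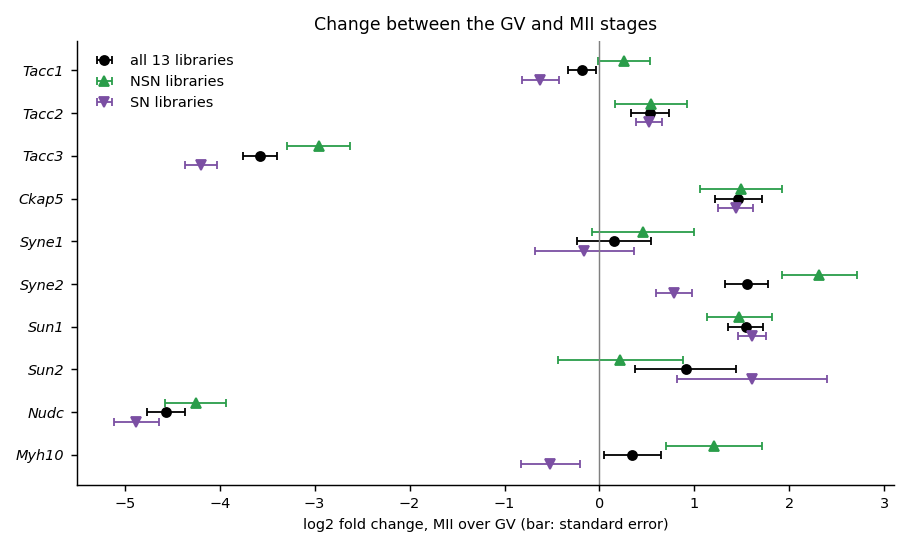
Log2 fold change from GV to MII (horizontal axis) of the 10 genes, with the standard error as bars, over all 13 libraries (circles), NSN libraries (upward triangles) and SN libraries (downward triangles). *Nudc* and *Tacc3* lie far to the left at −4.56 and −3.58, *Ckap5*, *Syne2* and *Sun1* lie near 1.5 to the right, and *Tacc1* and *Myh10* have NSN and SN values on opposite sides of 0.

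The same stage comparison in 4 lists of genes around the members, with 56 of 66 genes tested, gave 17 called higher, 23 called lower and 16 not called, and a median log2 fold change of −0.17 against −0.10 over all genes tested. Of all genes tested, 31.7% were called higher and 36.9% lower. Nothing is read from the counts of the 4 lists, together or singly, against these shares. Of 12 partners of TACC3 and ch-TOG, 6 rose, 3 fell and 3 were not called (median 0.54). *Slain2*, which binds ch-TOG at growing microtubule ends, rose from 2.47 to 5.30 FPKM at GV to 8.55 to 16.1 FPKM at MII (log2 fold change 1.83, SE 0.22, adjusted p = 1.22e-06). *Clasp2*, which stabilises microtubule plus ends, rose by 1.71 (SE 0.25, adjusted p = 1.14e-05). The clathrin light chain genes *Clta* (−2.80, SE 0.17, adjusted p = 3.66e-10) and *Cltb* (−2.27, SE 0.15, adjusted p = 1.66e-09) fell. Clathrin is the partner with which TACC3 and ch-TOG bridge kinetochore microtubules. *Aurka*, the kinase that phosphorylates TACC3 and the last of the 3 that fell, was at −0.99 (SE 0.18, adjusted p = 0.000129), and was singled out after its value was seen.

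Of 16 LINC and nuclear lamina genes 10 were tested, of which 3 rose, 6 fell and 1 was not called (median −0.67). *Tmem201*, an inner nuclear membrane protein that associates with SUN proteins, rose from 15.8 to 66.7 FPKM at GV to 90.8 to 138 FPKM at MII (1.44, SE 0.25, adjusted p = 7.84e-05). *Ccdc155*, which encodes KASH5, the outer nuclear membrane protein that couples telomeres to dynein in meiotic prophase, fell from 25.6 to 38.0 FPKM at GV to 0.250 to 2.10 FPKM at MII (−5.08, SE 0.38, adjusted p = 4.91e-09). *Syne3*, nesprin-3, fell from 9.93 to 21.98 FPKM to at most 1.88 FPKM (−3.81, SE 0.44, adjusted p = 9.9e-07). The outer-membrane partners of SUN1 thus went in both directions, with *Syne2* called higher and *Syne3* and *Ccdc155* called lower.

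Of 27 dynein, dynactin and LIS1 genes 25 were tested, of which 5 rose, 13 fell and 7 were not called (median −0.54). The dynein light chain genes *Dynll1* (−4.10, SE 0.26, adjusted p = 7.43e-10) and *Dynlrb1* (−3.79, SE 0.29, adjusted p = 6.43e-09) fell from at least 223 FPKM in each GV library to at most 32.9 FPKM in each MII library. *Dynlt3*, another light chain, rose from 8.94 to 17.6 FPKM to 23.0 to 35.7 FPKM (1.35, SE 0.16, adjusted p = 9.88e-07), and the dynein adaptor *Bicd2* rose by 0.87 (SE 0.17, adjusted p = 0.000268), though its stages overlapped in FPKM. *Pafah1b1*, which encodes LIS1, the partner of NUDC, was not called (−0.04, SE 0.17, adjusted p = 0.858), and was singled out after its value was seen. Of 11 nonmuscle myosin II genes 9 were tested, of which 3 rose, 1 fell and 5 were not called (median 0.40). *Ppp1r12a*, the targeting subunit of myosin phosphatase, rose from 40.7 to 61.7 FPKM to 148 to 199 FPKM (1.87, SE 0.18, adjusted p = 9.33e-08), and its catalytic subunit *Ppp1cb* rose by 1.43 (SE 0.27, adjusted p = 0.000152). *Myh14*, the heavy chain of myosin IIC, fell by 2.84 (SE 0.65, adjusted p = 0.000932) and had no more than 9 counts in any MII library.

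**Figure D3:**
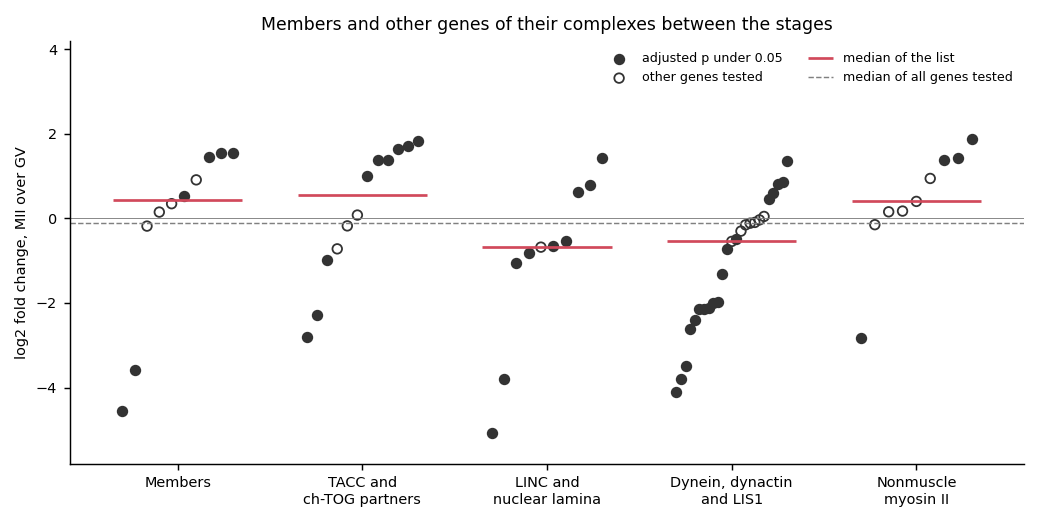
Log2 fold change from GV to MII (vertical axis) of the 10 genes (Members) and of the tested genes of 4 lists, filled where the adjusted p is under 0.05, with the median of each list in red and that of all genes tested (−0.10) dashed. The list medians run from −0.67 for LINC and nuclear lamina genes to 0.54 for TACC and ch-TOG partners.

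At the GV stage the question was whether NSN and SN oocytes differed in these genes before maturation. None of the 10 genes was called (0 of 10), none had groups that did not overlap in CPM, and every adjusted p was 1 by edgeR's quasi-likelihood test. Over all 10839 genes tested, 0.0% were called and 6.57% had groups that did not overlap. At an unadjusted p under 0.05 edgeR gave 190 genes, 0 of them among the 10, and DESeq2 called 0 genes and gave 284 at an unadjusted p under 0.05, of which 1 (*Syne2*) was among the 10. None of the 56 list genes tested was called and 1 (*Dync1i1*, a dynein intermediate chain) had an unadjusted p under 0.05.

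*Tacc3* and *Nudc*, the most abundant of the 10 genes at GV, had the smallest standard errors there. The log2 fold change, NSN over SN, was 0.04 (SE 0.15) for *Tacc3* and 0.08 (SE 0.15) for *Nudc*. It was −0.22 (SE 0.21) for *Tacc1*, −0.28 (SE 0.29) for *Tacc2*, −0.17 (SE 0.43) for *Ckap5*, 0.04 (SE 0.29) for *Sun1*, −0.23 (SE 0.38) for *Myh10* and −0.33 (SE 0.46) for *Syne1*. The largest values belonged to *Syne2* (−0.78, SE 0.39, unadjusted p = 0.078) and *Sun2* (1.55, SE 0.84, unadjusted p = 0.0982). *Sun2* had 18, 24 and 56 counts in NSN GV and 3, 25 and 6 counts in SN GV libraries, which overlap. Its value was 0.88 without NSN GV replicate 3 and 2.78 without SN GV replicate 2, and that of *Syne2* ran from −1.16 to −0.42 when 1 library was left out. With these errors a GV difference of moderate size cannot be told from none in *Tacc2*, *Ckap5*, *Syne1*, *Syne2*, *Sun1*, *Sun2* or *Myh10*. A small difference cannot be told from none in any of the 10 genes.

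NSN GV replicate 2 stood apart in the long transcripts. Relative to its group, transcripts of at least 6000 bases (1022 genes) lay 0.74 lower on the log2 scale than those of at most 2000 bases (1831 genes), a long minus short value of −0.74, against 0.30 and 0.49 in the other NSN GV libraries, −0.21 to 0.24 in SN GV and −0.09 to 0.14 in MII libraries. Each group mean includes the library itself, so in so small a group a low library raises the values of the others. In that library *Ckap5* lay at −1.14 from its group mean in log2 CPM, *Syne2* at −0.97, *Syne1* at −0.82, *Sun1* at −0.67 and *Tacc2* at −0.59, with *Myh10* at −0.45 and *Sun2* at −0.19. *Nudc* (0.24), *Tacc3* (0.23) and *Tacc1* (0.11) lay above theirs. The part of transcript length in these values was not tested. Without this library the GV difference was −0.42 for *Syne2*, 0.23 for *Ckap5* and 0.32 for *Sun1*, none was called, and the stage changes of *Ckap5* (1.27), *Syne2* (1.37) and *Sun1* (1.40) were still called.

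**Figure D4:**
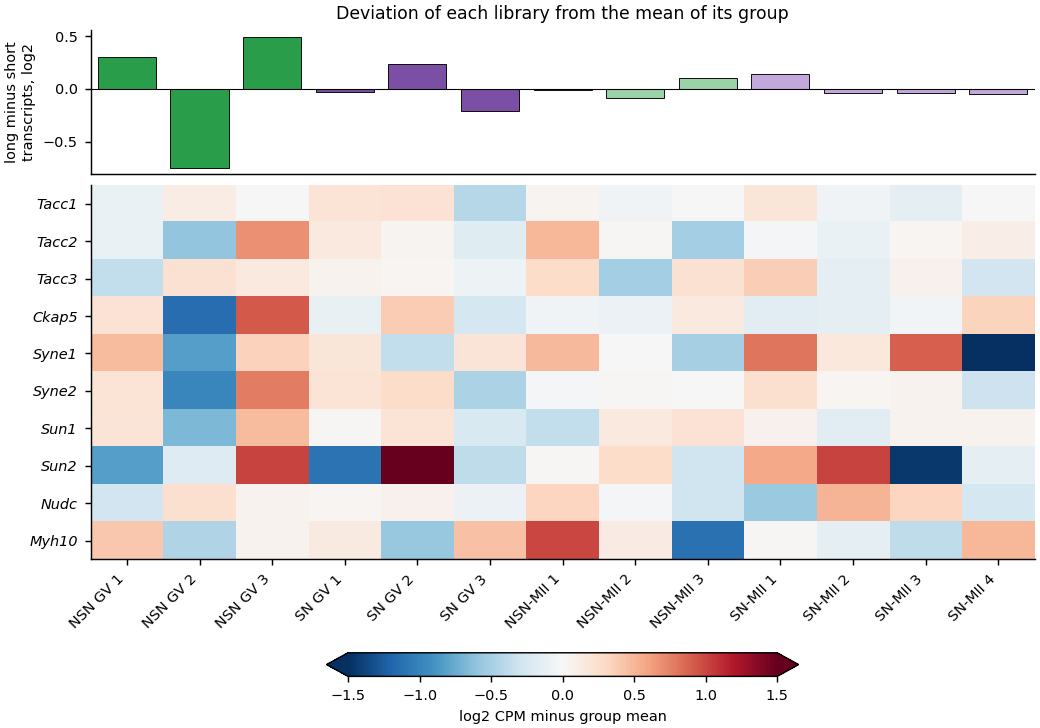
Upper panel, difference between the median deviation of long and short transcripts in each of the 13 libraries (log2 scale). Lower panel, deviation of each of the 10 genes from its group mean in log2 CPM, where NSN GV replicate 2 is blue for *Ckap5* (−1.14) and *Syne2* (−0.97) and NSN GV replicate 3 is red for both. Each group mean includes the library itself, so deviations within a group depend on each other.

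At MII, the contrast by which 5 of the genes were chosen, *Tacc1*, *Tacc3* and *Syne2* had NSN-MII libraries that all lay above all SN-MII libraries in CPM, and none of the 10 had the reverse. Over the 10028 genes tested, 4.63% lay higher in NSN-MII without overlap and 5.61% lower, and nothing is read from the 3 of 10 against these shares. *Tacc3* was at 344, 199 and 332 CPM in NSN-MII and at 152, 106, 122 and 96.0 CPM in SN-MII libraries, a log2 difference of 1.29 (SE 0.22) or 2.44-fold. Both MII groups remained far below the GV libraries, which held 1710 to 2589 CPM. *Syne2* was at 787, 806 and 801 CPM against 560, 483, 491 and 381 CPM (0.73, SE 0.16), and *Tacc1* at 72.3, 67.9 and 70.7 CPM against 50.7, 43.3, 40.9 and 44.8 CPM (0.65, SE 0.18).

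On the FPKM scale the genes without overlap were *Tacc3*, *Syne2* and *Myh10* (2.14 FPKM or more in NSN-MII, 1.91 FPKM or less in SN-MII libraries), while *Tacc1* overlapped. *Nudc* and *Myh10* overlapped between the MII groups in CPM. *Nudc* was at 54.5, 42.9 and 35.6 CPM in NSN-MII and 17.5, 36.8, 32.3 and 21.5 CPM in SN-MII libraries (0.71, SE 0.29). *Myh10* was at 59.6, 32.4 and 13.7 CPM against 12.46, 11.2, 9.46 and 17.4 CPM (1.49, SE 0.42), so NSN-MII replicate 3 lay among the SN-MII libraries and the other NSN-MII libraries above them. The value for *Myh10* was 0.88 without NSN-MII replicate 1 and 1.88 without NSN-MII replicate 3, and its implied transcript length varied 1.94-fold between libraries. Without NSN-MII replicate 3, 5 of the 10 genes did not overlap, with *Nudc* and *Myh10* added. Both were chosen by this contrast. The share of all genes without overlap was not computed for that split, and nothing is read from the count.

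The partners that were not on the study's list overlapped between the MII groups in CPM. The log2 difference, NSN-MII over SN-MII, was −0.26 (SE 0.22) for *Tacc2*, −0.12 (SE 0.16) for *Ckap5* and −0.11 (SE 0.17) for *Sun1*. For *Tacc2* it was −0.55 without NSN-MII replicate 1, when its remaining NSN-MII libraries lay below all SN-MII libraries, and −0.037 without NSN-MII replicate 3. It was 0.28 (SE 0.56) for *Syne1* and 0.17 (SE 0.58) for *Sun2*. Since the choice of the genes fixed which of them differ at MII, nothing is read from the contrast between listed genes and their partners.

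**Figure D5:**
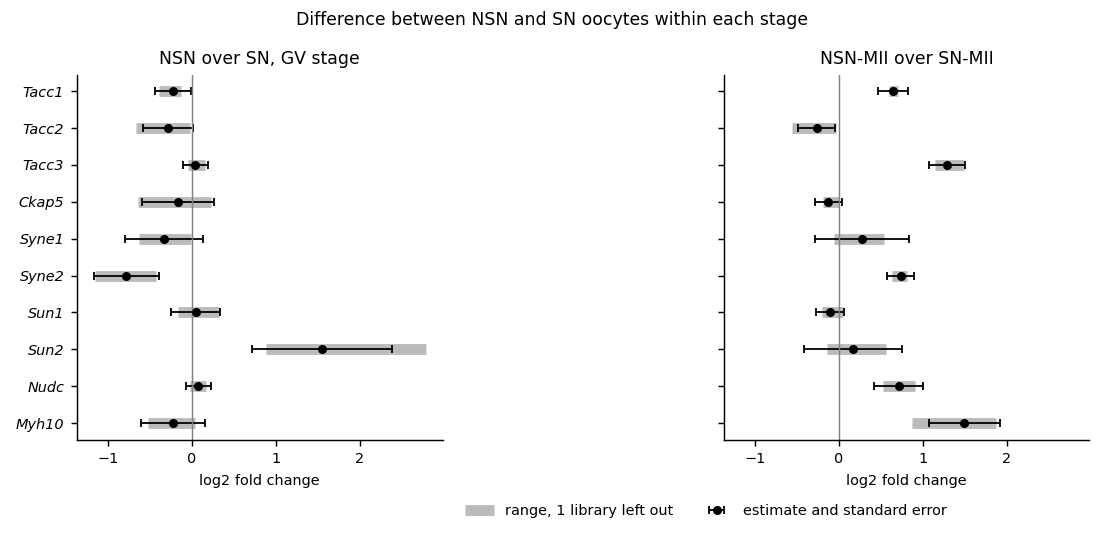
Log2 fold change, NSN over SN, of the 10 genes at GV (left) and MII (right), with the standard error as thin bars and the range of values when 1 library is left out as thick grey bars. At GV the estimates run from −0.78 (*Syne2*) to 1.55 (*Sun2*) with groups that overlap, and at MII *Tacc3* (1.29) and *Myh10* (1.49) lie furthest to the right.

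Single oocytes of 1 group varied to different degrees. The SD within groups in log2 CPM was 0.20 for *Tacc1*, above that of only 7.3% of the 7279 genes with a mean of at least 10 CPM. *Tacc1* was chosen by a difference between MII libraries, which can favour a small spread there. Nothing is read from its rank. The SD was 0.31 for *Tacc3*, 0.34 for *Sun1* and 0.35 for *Nudc*, against a median of 0.37 over the 7279 genes. It was 0.40 for *Tacc2*, 0.48 for *Syne2*, 0.54 for *Ckap5*, 0.63 for *Myh10*, 0.86 for *Syne1* and 0.997 for *Sun2*, the last 2 being genes of few counts.

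The genes whose log2 CPM ran most like each member over the 13 libraries are given as a description, by Pearson's r, with both stages among the points. *Tacc3* ran closest to *Ttc4* (0.997) and *Glmn* (0.994), *Nudc* to *Eif1ax* (0.996) and *Mrps25* (0.995), *Ckap5* to *Prr14l* (0.992) and *Sin3a* (0.991), and *Sun1* to *Atp7a* (0.991) and *Gpatch8* (0.990). *Syne2* ran close to *Ktn1* (0.974), and *Tacc2* to *Alkbh5* (0.952) and *Wdr37* (0.936). The genes with small or noisy changes had weaker matches. These were *Ncl* (0.861) and *Slc4a1ap* (0.859) for *Tacc1*, *Rnf169* (0.870) and *Slco5a1* (0.838) for *Syne1*, *Myh9* (0.847) and *Dido1* (0.800) for *Myh10*, and *Steap4* (0.822) and *Tmtc4* (0.795) for *Sun2*.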

How the data were processed

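RNA-seq libraries were made by the authors from single oocytes with the SMART-seq2 protocol and Tn5 fragmentation. According to the submitters' processing notes, Trim Galore 0.4.4, Bowtie2 2.3.5, RSEM 1.2.28 and DESeq2 1.20.0 were used with the genome build mm10. Counts are RSEM's expected counts, which the authors deposited as 1 table per stage. FPKM, scaled for gene length and library size, was deposited as 1 table of all libraries. Up to 16.6% of a library's expected counts were not whole. Among genes above a minimum count summed over the pair, no pair of libraries shared more than 0.696% of its values.

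In R 4.3.3, edgeR 4.0.16 served for rounded counts that passed filterByExpr, with TMM factors. Its quasi-likelihood test was run over the whole table, p-values were adjusted after Benjamini and Hochberg, and genes were called at an adjusted p under 0.05. MII was compared with GV over all 13 libraries with 4 group means, and NSN with SN over the 6 GV libraries. NSN-MII and SN-MII were compared without a test. CPM values use library sizes multiplied by the TMM factors. Each oocyte counted as 1 replicate, and since the females are not given, p-values measure the spread between these oocytes (common biological coefficient of variation over all libraries, 0.364). Alternatives were DESeq2 1.42.0, other scalings, no filter, limma 3.58.1 on log2(FPKM + 1), a replicate block, each type alone and leaving out each library. Scaling by library size was added after seeing the data.

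The 10 genes, the 4 lists and the tests were chosen with earlier results of these data known. Named beside the 10 are, with each exception marked, per list the 2 largest rises and falls among called genes whose stages did not overlap in CPM, and the 2 genes most correlated with each member, of which 1 is not reported here. All 10 members passed the filter in each comparison. Coordinates and 3′ ends are from the GENCODE M21 annotation of GRCm38. The edgeR step was tested on simulated data.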

Additional observations from a re-analysis of the deposited data

Results flagged for a closer look

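*Sun1* in SN-MII replicate 2 was at 316 CPM, further from the other SN-MII libraries than Dixon's test allows for a group of 4, with a gap that took up 0.902 of the group's range. The 10 genes were examined in this 1 group of 4, and chance alone marks about 5% of such values. Groups of 3 were not examined.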

How the results depend on the processing

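In the alternatives that held both types, the number of the 10 genes called between stages stayed between 5 and 7. *Tacc3*, *Nudc*, *Ckap5*, *Syne2* and *Sun1* were called in each of these. The fits of each type alone are given above as values, and no call is read from them. At GV 0 were called in every alternative. The labels do not say whether replicate numbers pair the oocytes, and correlations of same-numbered deviations ran from −0.52 to 0.20. With the replicate block 5 genes were called between stages, with *Tacc2* lost at an adjusted p of 0.0537. Leaving out 1 library gave 3 to 5 genes without overlap between NSN-MII and SN-MII. With FPKM in place of CPM there were also 3, with *Myh10* in and *Tacc1* out. For these alternatives the share of all genes without overlap was not computed, and nothing is read from the counts. Some values changed sign. Between stages these were *Tacc1* in NSN libraries alone (0.26), *Syne1* with scaling by library size (−0.13), with limma and no filter (−0.032), in SN libraries alone (−0.16) and with 1 library left out (−0.024 to 0.32), and *Myh10* with limma (−0.0745, −0.14 with a pseudocount of 0.1, and −0.0745 with no filter) and in SN libraries alone (−0.52). At GV they were *Tacc1* with limma (0.12 under each of 3 settings), *Myh10* with limma (0.13 to 0.18), and with 1 library left out *Myh10* (−0.52 to 0.036), *Tacc3* (−0.049 to 0.16), *Ckap5* (−0.64 to 0.23), *Sun1* (−0.17 to 0.32, and −0.025 with the replicate block) and *Nudc* (−0.022 to 0.17). Between NSN-MII and SN-MII they were *Syne1* (−0.0787 with the replicate block, −0.058 to 0.54 with 1 library left out), *Sun1* (−0.20 to 0.051) and *Sun2* (−0.14 to 0.56). The cause was not tested. *Syne1*, and at GV *Sun2*, fell under the FPKM minimum of 1 and have no filtered limma value. Beside these, 10 stage values lost the threshold and 3 gained it, all of *Tacc1*, *Tacc2* or *Sun2*. These counts include fits of 1 type alone, from which no call is read. The groups held 3 or 4 oocytes, *Sun2* had 3 to 56 counts per library, and the part of depth and of oocyte spread in the calls missed was not tested.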
